A study of Mus musculus with 7 samples.

Results

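The genes described here are 31 nucleolar genes of ribosome production, chosen by name with earlier results of these data known. They encode subunits of RNA polymerase I, proteins of the small nucleolar RNA particles, nucleolin and nucleophosmins, and assembly factors of the ribosomal subunits. Of the 31, 28 had a probe set on the array, and 27 of those gave a signal above the filter on low values, of 6326 genes in all that passed it. The signals of Npm3, Nop14 and Dkc1 are not analysed here. Wdr12 was measured but lay under the floor of 145.9 on all 7 arrays, at signals of 38.4 to 121.3. Counts of signals below therefore run over 27 genes, while counts of promoters include Npm3, Nop14, Dkc1 and Wdr12. All gene names are those of the table that pairs probe sets with genes.

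Ribosomes are made in the nucleolus, where RNA polymerase I transcribes ribosomal DNA into a long precursor RNA. Small nucleolar RNA particles of the box C/D and box H/ACA classes guide its methylation and pseudouridylation. Helicases, methyltransferases and assembly factors take part in its processing, its folding and its packing with ribosomal proteins. Cells that start to grow make more of this machinery, and the transcription factor Myc is a known regulator of its genes. The uterus is a tissue that grows under sex steroids, and growth needs new ribosomes.

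The data are a time course of dihydrotestosterone (DHT), an androgen that cannot be turned into estrogen, in uteri of ovariectomized C57BL/6 females. Mice of 10 to 11 weeks were killed 7 days after removal of the ovaries, and the labels also say that mice of that age were kept for 4 weeks after arrival. The DHT groups were injected under the skin with 0.1 mg per mouse and killed 1, 3, 6, 12, 18 or 24 h later, and the vehicle group was killed 24 h after an injection without DHT. Each of the 7 groups is 1 pool of uteri on 1 Affymetrix U74Av2 array, with no replicate. All groups lacked ovaries, so no group shows the uterus with its own ovarian hormones. Only the 24 h DHT array has a vehicle array taken equally long after the injection, so what DHT did and what the injection did cannot be told apart on the other 5 DHT arrays. The array titles give an 18 h group where the series' design text gives 0.5 h, and the titles were followed.

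Promoters are shown first for some of the genes with high ratios to vehicle, because many of the nucleolar genes were high on the same arrays. RefSeq promoters of build GRCm38.p6, running from 250 bases before to 50 after the start of transcription, were found for 26 of the 31 genes, as 28 promoters, in a table of 32851. Rrs1, which has the second highest ratio of the genes, is not among them, nor are Npm1, Fbl, Bop1 and Tcof1. Capitals mark matches, on either strand, to 6 letter strings: the E-box CACGTG that Myc can bind, the androgen receptor half-site TGTTCT, the ETS core CCGGAAG, the GC box GGGCGG, the CCAAT box CCAAT and the TATA box TATAAA. The runs show up to 150 bases before the start, 5′ to 3′ on the strand of the gene. Ddx21 lies at chr10:62602299-62602448 on the minus strand, Nhp2 at chr11:51619623-51619772 on the plus strand, Nop2 at chr6:125131733-125131882 on the plus strand, Nop56 at chr2:130274262-130274366 on the plus strand and Ppan at chr9:20888025-20888174 on the plus strand. Ddx21, Nop56, Nhp2 and Ppan are shown for their ratios, and Nop2 because it holds an E-box. The Nop56 run holds 105 bases, since it stops where the annotation of that gene begins.
Ddx21: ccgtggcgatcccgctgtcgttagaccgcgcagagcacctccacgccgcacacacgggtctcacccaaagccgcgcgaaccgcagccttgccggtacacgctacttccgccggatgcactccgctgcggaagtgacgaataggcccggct
Nhp2: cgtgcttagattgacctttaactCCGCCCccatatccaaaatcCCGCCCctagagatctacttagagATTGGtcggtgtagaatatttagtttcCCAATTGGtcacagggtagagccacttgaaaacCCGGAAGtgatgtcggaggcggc
Nop2: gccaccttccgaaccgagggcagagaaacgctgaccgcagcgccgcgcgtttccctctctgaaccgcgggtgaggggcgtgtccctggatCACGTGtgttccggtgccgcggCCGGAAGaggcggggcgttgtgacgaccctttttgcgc
Nop56: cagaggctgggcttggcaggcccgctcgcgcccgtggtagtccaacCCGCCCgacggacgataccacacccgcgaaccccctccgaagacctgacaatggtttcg
Ppan: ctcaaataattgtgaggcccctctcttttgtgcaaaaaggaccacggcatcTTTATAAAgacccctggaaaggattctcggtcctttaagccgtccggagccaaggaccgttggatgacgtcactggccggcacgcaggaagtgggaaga

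The E-box was in 2 of the 28 promoters, those of Nop2 and Pes1, which is 7.14% against 7.15% of all promoters. The androgen receptor half-site was in 5 promoters of 4 genes (Ftsj3, Pes1, Polr1a and Wdr12), or 17.9% of the promoters against 19.0%. None of the 5 runs above holds it. The ETS core was in 8 promoters (28.6% against 8.86%), among them Nhp2 and Nop2, and the GC box was in 18 (64.3% against 35.7%). The CCAAT box was in 8 (28.6% against 37.4%) and the TATA box in 3 (10.7% against 13.6%). In Nhp2 the capitals CCAATTGG hold the CCAAT box on both strands, and in Ppan TTTATAAA holds the TATA box on both strands. In all, 13 strings were looked for, and the 6 in capitals were picked after their matches were seen. Of the other 7, TTCCGG, which lies within the ETS core read on the opposite strand, was in 13 member promoters (46.4% against 14.9%). CGCGAG was in 8 (28.6% against 11.0%) and CTTCCTTTC in 1 (3.57% against 1.3%). AAAATGGC was in 0 against 1.54%. The longer motifs of ZBTB33, NRF1 and YY1, given by name only and of which that of ZBTB33 holds CGCGAG, were each in 0, against 0.466%, 0.971% and 0.633%. The GC content of the member promoters had a median of 57.3% (45.3 to 80.3%), against 52.7% over all, and its part in these shares was not tested. These are matches of letters and show no binding.

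Across the time course, the nucleolar genes were near vehicle at 1 h, higher at 3 h, highest at 6 h and lower again by 24 h. Their median log2 ratio to vehicle was 0.00, 0.25, 0.60, 0.44, 0.24 and 0.16 at 1, 3, 6, 12, 18 and 24 h, while the median of all 6326 genes was 0.00 at each time. At 6 h 25 of the 27 genes lay above vehicle, against 46.3% of all genes, and at 1 h 13 lay above and 13 below. At 6 h the quartiles were 0.28 and 0.86 for the nucleolar genes and -0.23 and 0.22 for all genes. The spread among the nucleolar genes was wide, with single ratios between -0.35 (Polr1d, 1 h) and 1.52 (Ddx21, 6 h). Each ratio compares 1 array with the same vehicle array, so the 6 times share that array, and no time has a test of its own. With the floor at the 60th percentile of all signals the medians at 3, 6 and 12 h were 0.02, 0.29 and 0.18. The 3 h median was 0.25 with the floor at the 20th percentile and 0.24 with 50 added to the signal and no floor. Against the median of all 7 arrays in place of vehicle, a baseline chosen after seeing the data, the median was -0.19, 0.06, 0.33, 0.16, 0.00 and -0.06 at 1, 3, 6, 12, 18 and 24 h. In bulk tissue, fewer cells of a type and less RNA per cell cannot be told apart.

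**Figure D1:**
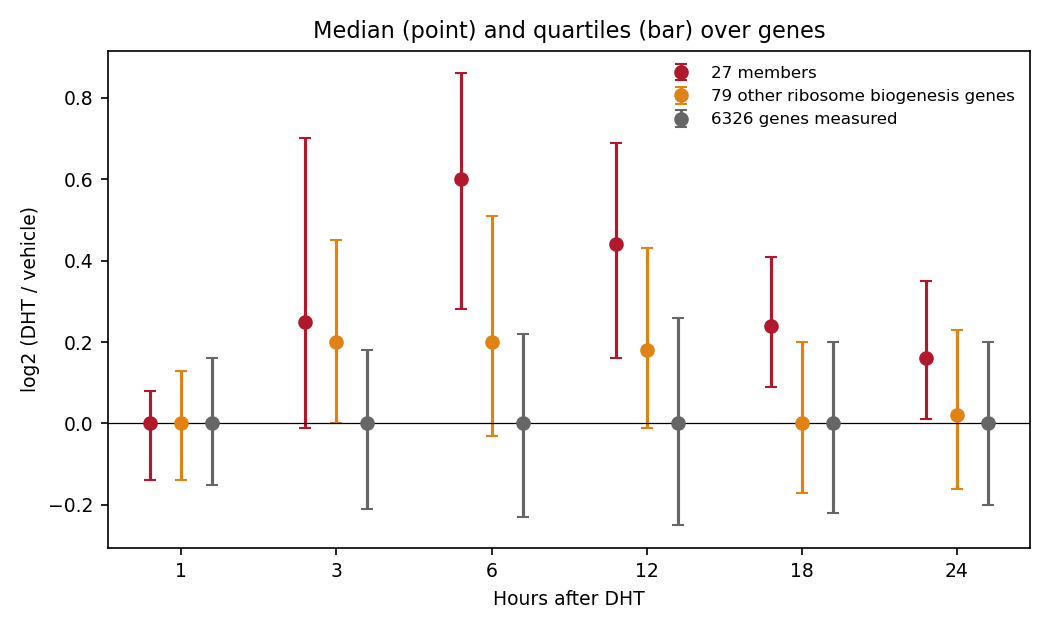
Median (point) and quartiles (bar) of the log2 ratio of each DHT array to the vehicle array, by hours after DHT, over the 27 nucleolar genes, 79 other ribosome biogenesis genes and all 6326 genes measured. The nucleolar genes' median is highest at 6 h, at 0.60, and the median of all genes is 0.00 throughout.

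A gene was counted as 2-fold or 1.5-fold higher where its higher signal was also at least 291.8, which is the floor doubled. At 1 h no nucleolar gene was 2-fold higher (0.474% of all genes were). At 3 h 3 were (1.23% of all genes), namely Nop56, Rrs1 and Ppan. At 6 h 6 were (1.28%), with Ddx21, Nhp2 and Nolc1 added. Ddx21 was the only one at 12 h (1.83% of all genes), and none was at 18 h (1.31%) or 24 h (0.933%). In all, 4 of the 27 were 2-fold higher at 2 or more times, against 1.61% of all genes. Just short of the limit lay Polr1b, at 1.00 on the log2 scale at 3 h, and Nhp2, at 0.96 at the same time.

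At 1.5-fold, the numbers of higher genes at 1, 3, 6, 12, 18 and 24 h were 0 (2.2% of all genes), 9 (4.03%), 13 (5.9%), 7 (7.43%), 2 (4.76%) and 2 (4.32%). No nucleolar gene was 1.5-fold lower at any time, against 1.99%, 3.65%, 5.11%, 6.04%, 4.41% and 3.97% of all genes at 1, 3, 6, 12, 18 and 24 h. At 24 h, the only time with a matched vehicle array, the 2 were Ncl and Ddx21, and 20 of 27 genes lay above vehicle, against 48.1% of all genes. In all, 15 of the 27 were 1.5-fold higher at some time (14.5% of all genes), and 9 were so at 2 or more times (7.49% of all genes). These 9 are given on every array below, and 18 by their range. Of the 27, 15 lay above vehicle at each time between 3 and 24 h, against 17.2% of all genes.

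**Figure D2:**
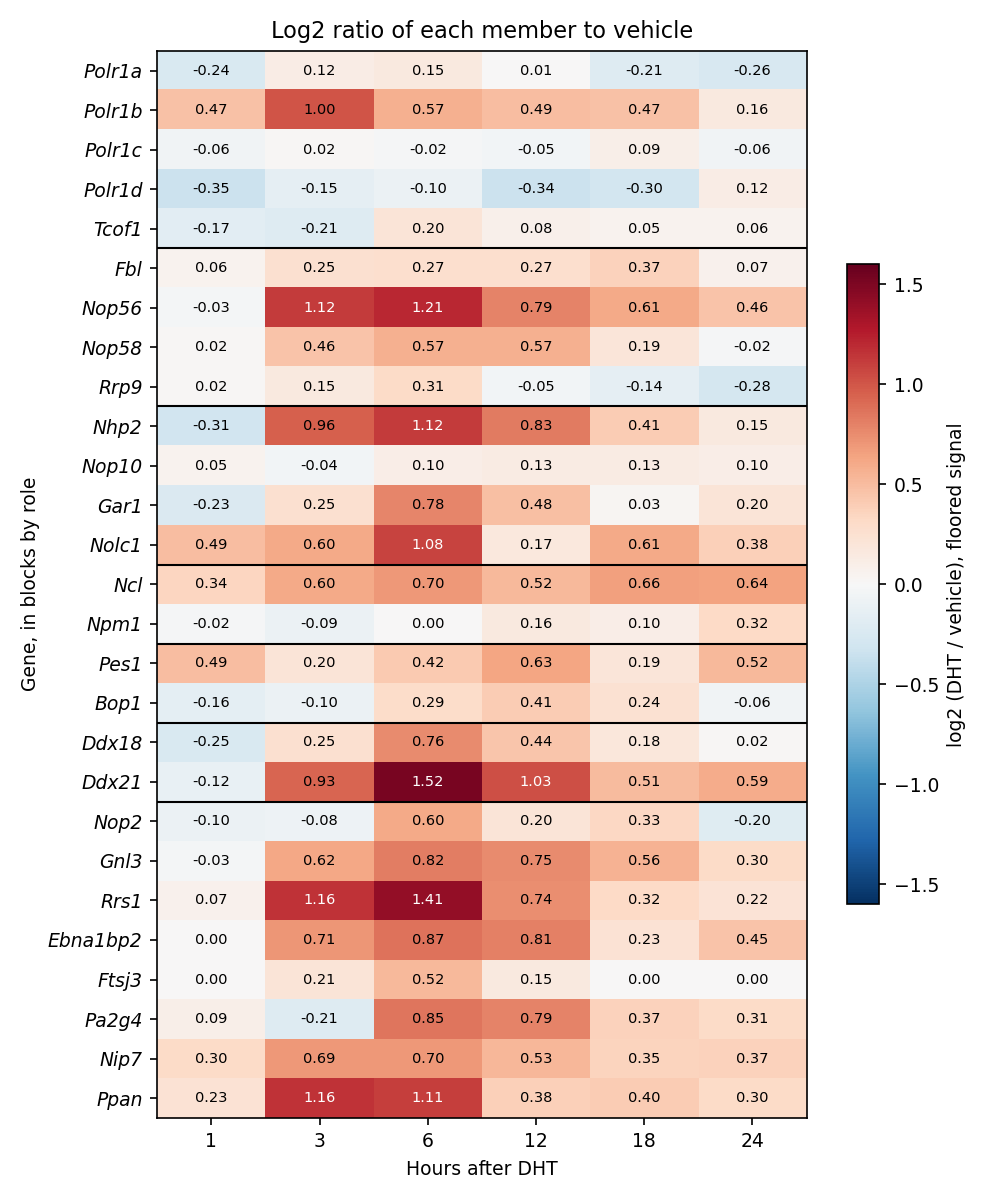
Log2 ratio of each DHT array to the vehicle array for the 27 nucleolar genes (rows, in blocks by role) by hours after DHT (columns), with signals under the floor raised to it. The 6 h column holds the highest ratio, 1.52 for Ddx21, and Polr1c and Nop10 stay within 0.13 of vehicle at all 6 times.

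The time of the highest signal was shared by most of the genes. On the DHT arrays, 18 of 27 nucleolar genes were highest at 6 h, or 66.7%, against 16.1% of the 6267 genes with a single highest array. Without Ftsj3, which passed the filter only through its 3, 6 and 12 h arrays, 17 of 26 were. None was highest at 1 h. Polr1b and Ppan were highest at 3 h, Bop1 and Pes1 at 12 h, Fbl, Nop10 and Polr1c at 18 h, and Npm1 and Polr1d at 24 h. The 18 genes were also higher at 6 h than in vehicle. They were thus higher at 6 h than on all other arrays, which was so for 14.1% of all genes. This peak rests on 1 array, and that array had the lowest median signal of the 7 (227.4), the lowest actin 3′ to 5′ ratio (1.03) and the highest share of probe sets under the floor (40.8%). The part of these differences in the peak was not tested. Without the 6 h array, 9 genes were highest at 3 h and 10 at 12 h, or 33.3% and 37.0%, against 22.0% and 23.4% of all genes.

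**Figure D3:**
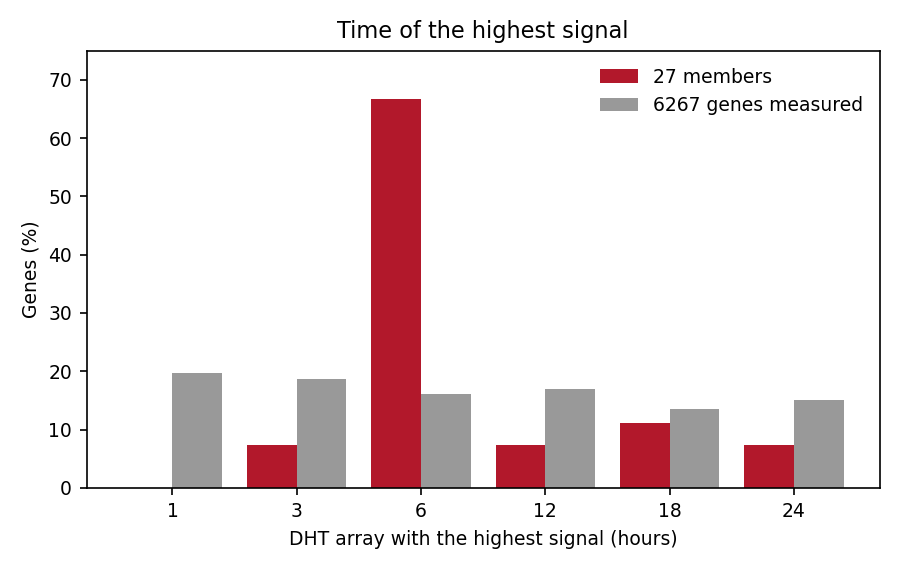
Share of genes (percent) whose highest signal among the 6 DHT arrays fell at each time, for the 27 nucleolar genes and for the 6267 genes with a single highest array. At 6 h the bars reach 66.7% for the nucleolar genes and 16.1% for all genes.

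From one array to the next, the genes moved largely in the same direction. Between 1 and 3 h 22 of 27 were higher at the later time (45.2% of all genes), by a median of 0.26, and between 3 and 6 h 24 were (49.7%), by a median of 0.16. Between 6 and 12 h 23 were lower at 12 h (45.9% of all genes), with a median step of -0.18. Between 12 and 18 h 19 were lower (51.3%), with a median step of -0.16, and between 18 and 24 h 18 were (44.4%), with a median step of -0.10. At 24 h 23 of 27 lay lower than at 6 h, against 46.4% of all genes. The 18 genes highest at 6 h are lower at 24 h by that fact alone. All 9 genes given in full were among the 23, and all of them but Ppan were highest at 6 h. This count and the steps into and out of 6 h rest on the same 6 h array.

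In the block of RNA polymerase I, all genes but Polr1b had small ratios, as did some genes of other blocks, such as Nop10. Polr1a, Polr1c, Polr1d and Tcof1, which encodes the polymerase I cofactor treacle, had ratios between -0.35 and 0.20 at all times, and the median of the block was 0.15 at 6 h. Polr1a encodes the largest subunit and gave signals of 280.8 to 374.3. Polr1c encodes a subunit shared with RNA polymerase III and gave 911.2 to 1012.0, while its other probe set above the filter gave 351.7 to 498.2, highest at 1 h. Polr1d, also shared with polymerase III, gave 374.7 to 518.7, and Tcof1 gave 657.3 to 876.4. Polr1b, the second largest subunit, differed: its signal was 537.0 in vehicle and 744.6, 1072.7, 795.1, 754.2, 746.3 and 598.7 at 1, 3, 6, 12, 18 and 24 h. All 6 DHT arrays lay above vehicle, with the highest at 3 h. Its probe set is of the maker's family type, which can bind transcripts of related genes.

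Of the box C/D proteins, which form the particles that methylate ribosomal RNA, Nop56 had the highest ratios. Nop56 is a core protein of these particles. Its signal was 582.4 in vehicle and 568.7, 1262.2, 1349.6, 1007.4, 891.3 and 799.4 at 1, 3, 6, 12, 18 and 24 h, that is 2.17-fold and 2.32-fold vehicle at 3 and 6 h. The 1 h array lay just under vehicle and the other 5 above it. Nop58, its partner protein, gave 244.4 to 369.5 on a family probe set, with ratios of 0.57 at both 6 and 12 h. Fbl, the methyltransferase fibrillarin, gave 2306.3 to 2974.1 and lay 0.06 to 0.37 above vehicle. Rrp9, a protein of the U3 particle, gave 893.5 to 1340.1, with 0.31 at 6 h and -0.28 at 24 h.

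Of the box H/ACA proteins, which form the particles that make pseudouridine, Nhp2, Gar1 and the chaperone Nolc1 were high at 6 h while Nop10 stayed near vehicle. Nhp2, a core protein whose promoter is shown above, had a signal of 1022.3 in vehicle and 823.2, 1982.4, 2227.5, 1822.0, 1358.2 and 1137.2 at 1, 3, 6, 12, 18 and 24 h. It was lower than vehicle at 1 h, 2.18-fold vehicle at 6 h and within 0.15 of vehicle, on the log2 scale, at 24 h. Gar1 gave 1254.3 to 2515.4, lowest at 1 h and highest at 6 h, and its other probe set lay under the floor on all arrays. Nolc1, a chaperone of both classes of particle, gave 200.4 to 375.3 after DHT, against 177.7 in vehicle, with 2.11-fold vehicle at 6 h. Nop10, a small core protein, gave 3287.3 to 3690.0, with ratios between -0.04 and 0.13.

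Nucleolin and nucleophosmin, abundant proteins of the nucleolus, followed different courses. Ncl, whose protein binds precursor ribosomal RNA, had a signal of 3287.5 in vehicle and 4151.3, 4986.6, 5322.5, 4702.1, 5190.1 and 5108.1 at 1, 3, 6, 12, 18 and 24 h. All 6 DHT arrays lay above vehicle, and from 3 h on the log2 ratio stayed between 0.52 and 0.70, with 0.64 at 24 h. Npm1, a chaperone of ribosome assembly, gave 4969.4 to 6617.2. Its ratio was 0.00 at 6 h, where most of the genes peaked, and 0.32 at 24 h, its highest.

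Both helicases were highest at 6 h. Ddx21, a helicase that acts in polymerase I transcription and in RNA processing, had a signal of 368.0 in vehicle and 339.0, 700.2, 1052.6, 751.9, 523.0 and 553.5 at 1, 3, 6, 12, 18 and 24 h. It was 2.86-fold vehicle at 6 h and 2.04-fold at 12 h, and only its 1 h array lay below vehicle. Ddx18, whose yeast counterpart acts in making the large subunit, gave 356.4 to 717.8 on its brighter probe set, highest at 6 h. The other Ddx18 probe set gave 202.5 to 386.5, highest at 12 h, and both were lowest at 1 h.

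Among the assembly factors, Rrs1 and Ppan had the highest ratios. Rrs1, needed to build the large subunit, had a signal of 401.3 in vehicle and 420.5, 898.9, 1067.4, 670.7, 502.1 and 468.6 at 1, 3, 6, 12, 18 and 24 h. It was 2.24-fold vehicle at 3 h and 2.66-fold at 6 h, and all 6 DHT arrays lay above vehicle. Ppan, whose yeast counterparts act in large subunit maturation, had 226.2 in vehicle and 265.3, 504.9, 487.7, 294.1, 299.3 and 278.3 at the same times. It was 2.23-fold vehicle at 3 h and 2.16-fold at 6 h, and at 12 h its ratio was 0.38 on the log2 scale. With the floor at the 60th percentile of all signals, its ratio was 0.49 at 3 h and 0.44 at 6 h.

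Gnl3, Nip7 and Pa2g4 stayed under 2-fold at all times. Gnl3, which encodes the GTP-binding protein nucleostemin, had a signal of 307.4 in vehicle and 301.6, 471.4, 544.2, 516.8, 453.7 and 379.1 at 1, 3, 6, 12, 18 and 24 h. Its ratio stayed at 0.56 or more between 3 and 18 h. Nip7, a factor of precursor RNA processing, had 405.7 in vehicle and 500.0, 656.6, 660.7, 584.5, 517.6 and 524.3, with all 6 DHT arrays above vehicle. Pa2g4, a growth-linked protein that binds ribosomes and ribosomal RNA, had 349.3 in vehicle and 372.9, 301.5, 630.8, 605.6, 452.1 and 432.5. Unlike the others given in full, it lay below vehicle at 3 h, at -0.21, and reached 0.85 only at 6 h.

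**Figure D4:**
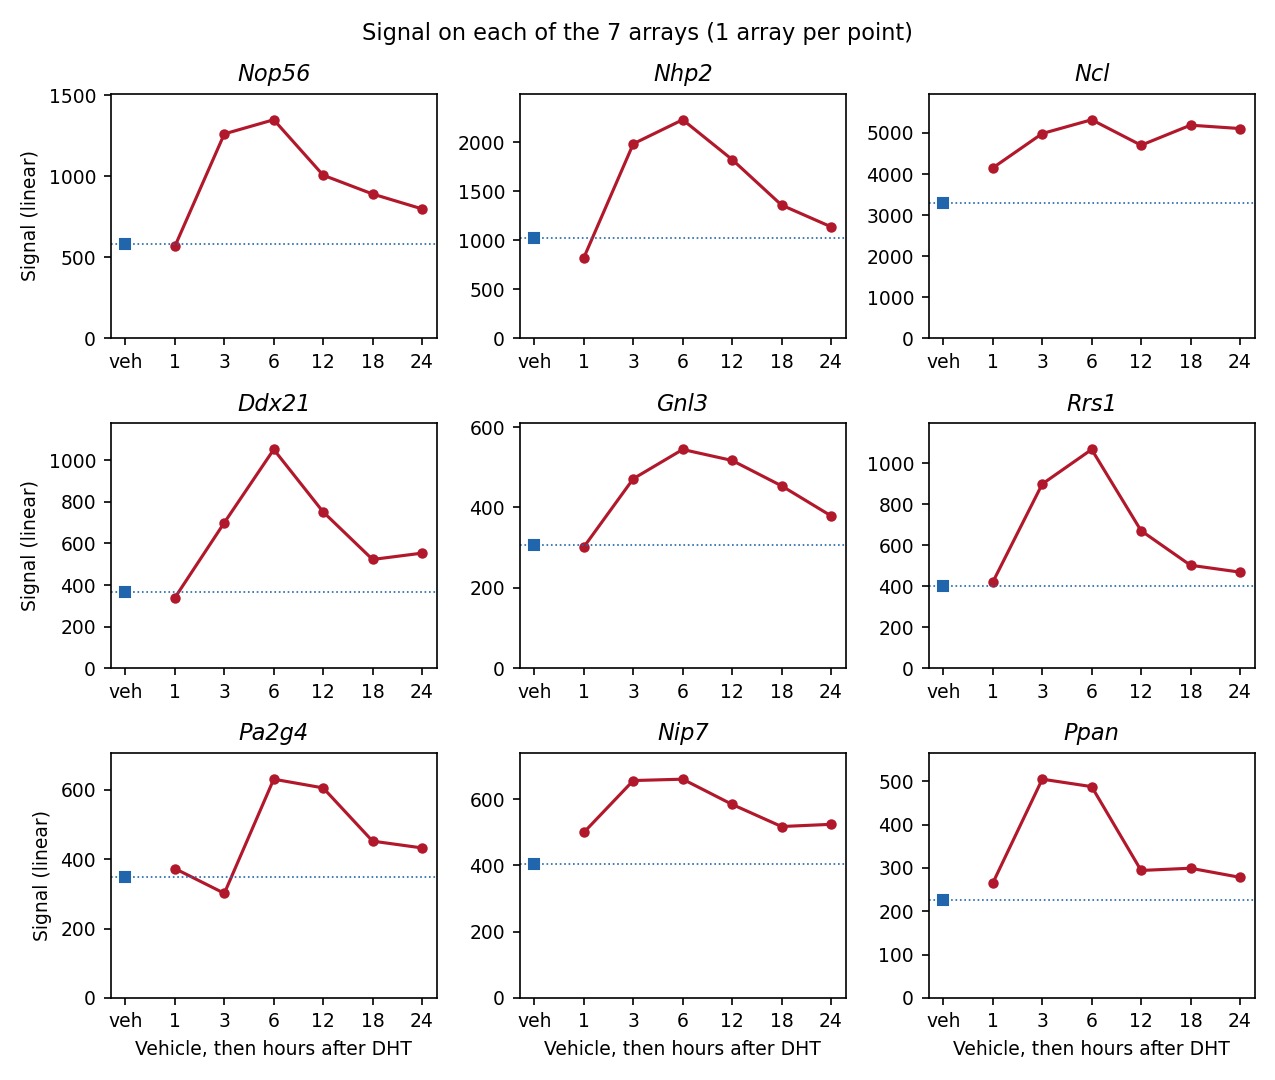
Signal (linear scale, 1 array per point) of the 9 nucleolar genes at least 1.5-fold above vehicle at 2 or more times; the square and dotted line mark vehicle, the points the hours after DHT. Ppan is highest at 3 h and the other 8 are highest at 6 h.

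The remaining assembly factors were counted as 1.5-fold higher at no more than 1 time. Ebna1bp2, whose yeast counterpart acts in large subunit assembly, gave 153.7 to 281.3 after DHT, against 153.5 in vehicle, with a ratio of 0.87 at 6 h, and its signals were too low to be counted at either fold limit. Nop2, a methyltransferase of ribosomal RNA, gave 519.2 to 903.0, with 0.60 at 6 h and between -0.20 and 0.33 at the other times. Pes1 and Bop1 belong with Wdr12 to the PeBoW complex of large subunit maturation. Pes1 gave 215.4 to 292.4 after DHT, against 189.0 in vehicle, with 0.63 at 12 h, and Bop1 gave 313.2 to 464.8, with 0.41 at 12 h. Ftsj3, a methyltransferase of precursor ribosomal RNA, gave 169.1, 208.6 and 162.0 at 3, 6 and 12 h and passed the filter only through those arrays. It was under the floor on the other 3 DHT arrays and in vehicle (95.4).

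To give the comparison a spread, the early phase, with arrays at 1, 3 and 6 h, and the late phase, with 12, 18 and 24 h, were each set against vehicle and against each other in 1 limma fit. Different times stand in for replicates there, and vehicle, with a single array, is taken to have the spread of the DHT phases. In early DHT minus vehicle, the nucleolar genes had a median difference of 0.27, with 23 of 27 above 0 (51.0% of all genes were), and in late DHT minus vehicle 0.24, again with 23 of 27 above 0 (51.3%). Both differences share the vehicle array. Late DHT minus early DHT had a median of -0.03, with 11 genes above 0 (49.3% of all genes were) and 16 below. No nucleolar gene passed in any of the 3 contrasts after Benjamini-Hochberg adjustment in limma (0.237%, 0.285% and 0% of all genes passed). The genes that passed, early and late, were all lower after DHT. At an unadjusted p under 0.05, 4 passed early, all higher (2.7% of all genes passed higher and 3.41% lower). Late, 1 passed, higher (5.83% higher and 5.85% lower), and late against early 1 was higher and 1 lower (5.9% and 4.9%). The array that decided most was 1 h: without it the early median was 0.50 and the late minus early median -0.28, and without the 6 h array the early median was 0.15. Without the 24 h array the late median was 0.38.

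The genes with the widest swings had the widest errors, since a peak within a phase counts as spread. Ddx21 differed by 0.78 ± 0.61 early and 0.71 ± 0.61 late (log2, SE, 3 arrays against 1), Nop56 by 0.76 ± 0.50 early, and Rrs1 by 0.88 ± 0.54 early. Ncl, with the smallest standard error of the 9 genes given in full, was closest to passing: 0.54 ± 0.16 early (limma, Benjamini-Hochberg adjusted p = 0.59) and 0.60 ± 0.16 late (adjusted p = 0.271), higher on 6 of 6 DHT arrays. The other 3 genes with an unadjusted p under 0.05 early were Nip7 at 0.57 ± 0.21, Polr1b at 0.68 ± 0.25 and Nolc1 at 0.72 ± 0.28, with limma adjusted p = 0.743, 0.743 and 0.776. Nolc1, a dim gene, ranged between 0.02 and 0.84 early over the settings tried.

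Late against early, with 3 arrays on each side, Npm1 was higher and Rrp9 lower without passing. Npm1 differed by 0.23 ± 0.08 (limma adjusted p = 0.428), and all 3 late arrays lay above all 3 early ones. Rrp9 differed by -0.31 ± 0.11 (limma adjusted p = 0.415), and all 3 late arrays lay below the early ones. Besides Npm1, only Nop10 had its late arrays all above its early arrays, by a mean of 0.08. These 2 of 27 compare with 8.49% of all genes, and the 1 lower with 7.27%. Rrs1 differed by -0.45 ± 0.38 late against early. The genes named in the contrasts were chosen after their values were seen.

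**Figure D5:**
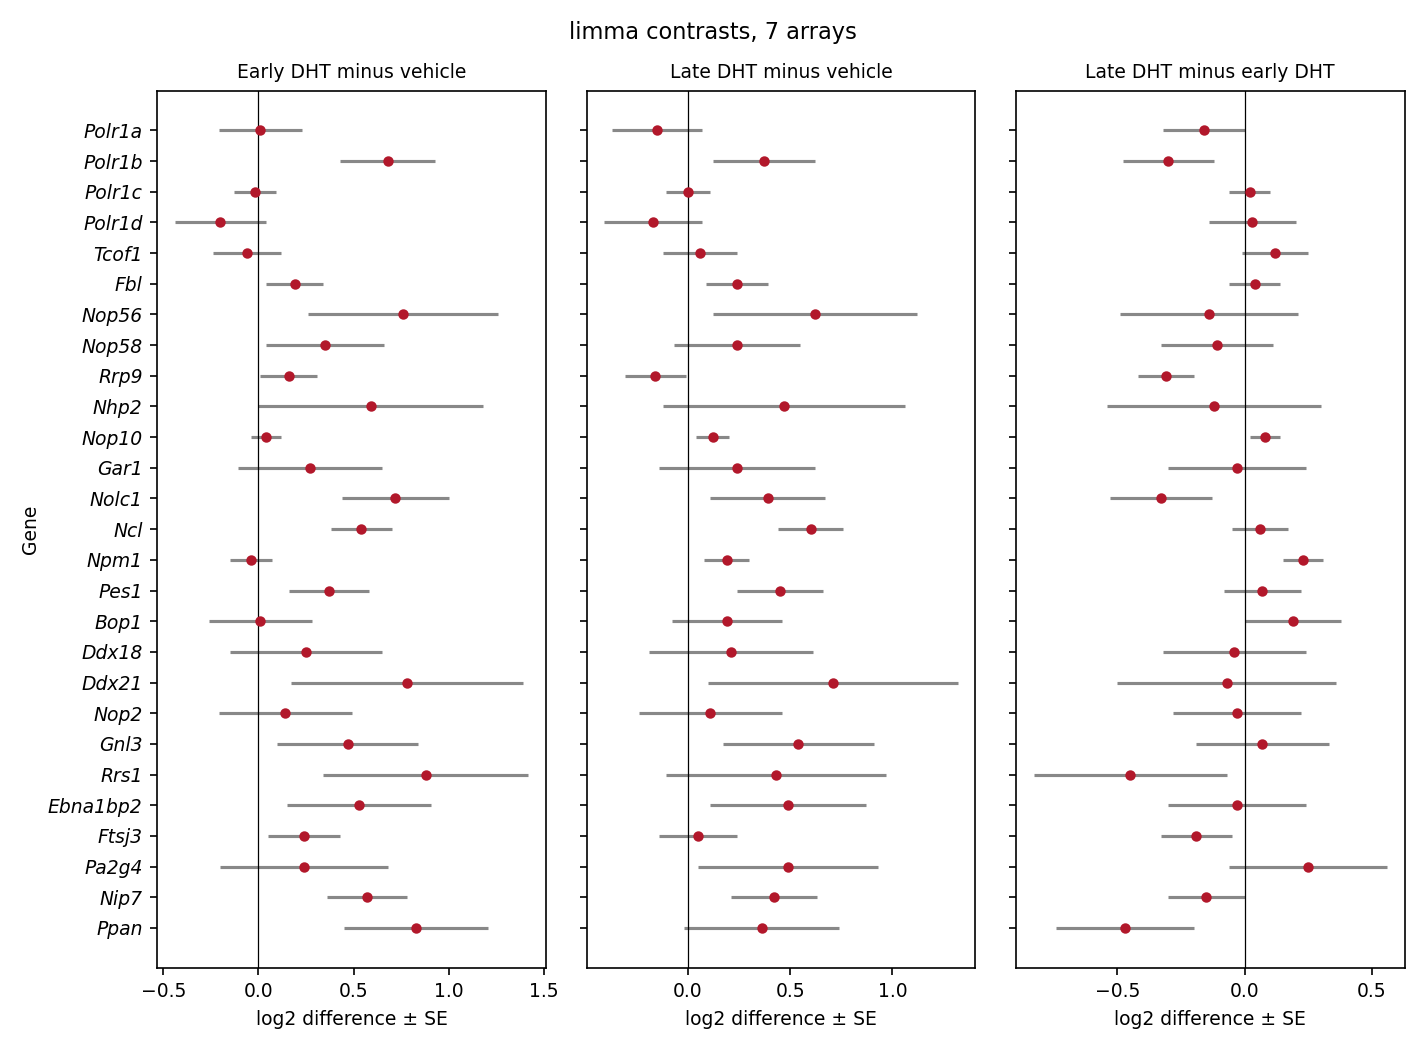
Log2 difference (point) and standard error (bar) of the 27 nucleolar genes from 1 limma fit of 7 arrays, for early DHT minus vehicle, late DHT minus vehicle and late DHT minus early DHT. Most points lie right of 0 in the panels against vehicle (23 of 27 in each, against 51.0% and 51.3% of all genes). In late minus early 16 of 27 lie left of 0, and of all genes 49.3% lay right of 0.

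Other genes of ribosome production followed with smaller median ratios from 6 h on. Of 137 such genes, 84 were on the array and 79 passed the filter, with a median log2 ratio of 0.00, 0.20, 0.20, 0.18, 0.00 and 0.02 at 1, 3, 6, 12, 18 and 24 h. Some of the 79, such as Polr1e and Rpf2, exceeded the floor on only 1 array, so their ratios lay near 0. With the floor at the 20th percentile, the medians at 3, 6 and 12 h were 0.29, 0.30 and 0.24. Those of the nucleolar genes were then 0.25, 0.65 and 0.46. At 6 h 3 of the 79 were 2-fold higher (1.28% of all genes were), against 6 of the 27 nucleolar genes. Pno1, a factor of small subunit maturation, was the only one 2-fold from vehicle at 2 times: its signal was 323.9 in vehicle and 267.3, 429.8, 715.4, 657.1, 409.9 and 382.2 at 1, 3, 6, 12, 18 and 24 h. Like most of the nucleolar genes it was below or near vehicle at 1 h and highest at 6 h. Tsr1 and Bysl were 2-fold higher only at 6 h and Brix1 only at 3 h (1.23% of all genes at 3 h). Imp4 was 2-fold lower at 18 h, as were 65 of all 6326 genes, and Ruvbl1 at 12 h, as were 76. In limma 0 of the 79 passed in any contrast, and the counts at an unadjusted p under 0.05 were mixed in direction. Early 7 had one, 5 of them higher (6.12% of all genes had one), late 9, of which 4 were higher (11.7%), and late against early 5, of which 1 was higher (10.8%).

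Myc had its highest signal before most of the nucleolar genes. It gave 241.0 in vehicle and 351.2, 475.6, 336.8, 300.0, 363.0 and 316.2 at 1, 3, 6, 12, 18 and 24 h. Its log2 ratio was already 0.54 at 1 h, when the nucleolar genes had a median of 0.00, and was 0.98 at 3 h. Among the nucleolar genes at 1 h, Nolc1 and Pes1 were at 0.49, while 13 of 27 lay below vehicle. Polr1b and Ppan were, like Myc, highest at 3 h. The order of these times rests on single arrays, and a link between Myc and the nucleolar genes was not tested.

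Cell-type markers and array quality were compared with the same groups. Summed signals of 8 epithelial markers were 9118 to 11236 on the late arrays and 9260 to 10482 on the early arrays, against 9960 in vehicle. The 8 stromal markers summed to 56982 to 74182 late and 50426 to 51582 early, against 48318 in vehicle, and the 8 smooth muscle markers to 49148 to 65060 late and 37609 to 39793 early, against 41390 in vehicle. The 8 dividing-cell markers above the filter summed to 5066 to 8174 late and 3388 to 3549 early, against 3439 in vehicle. At 6 h, where the nucleolar genes were highest, the median log2 ratio was 0.32 for stroma, 0.06 for dividing cells, -0.05 for endothelium, -0.12 for smooth muscle, -0.14 for leukocytes, -0.15 for epithelium and -0.28 for adipocytes. Stroma had medians of 0.11, 0.13 and 0.63 at 1, 3 and 12 h. The 6 endothelial markers summed to 2316 to 2703 late and 2215 to 2625 early, against 2707 in vehicle. Leukocyte markers (6 of 9 above the filter, without Ptprc, Cd3e and Itgam) summed to 3872 to 4503 late and 4406 to 4848 early, against 4905 in vehicle. Adipocyte markers (3 of 6, without Pparg) summed to 2197 to 2694 late and 2791 to 3596 early, against 3044 in vehicle. The part of stroma, smooth muscle and dividing cells in the values of the nucleolar genes, at 6 h and later, was not tested. The array medians lay between 227.4 (6 h) and 237.0, and the 3′ to 5′ signal ratios, a sign of RNA quality, lay between 1.03 and 1.19 for actin and between 0.83 and 0.89 for Gapdh.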

How the data were processed

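RNA from pooled uteri (20 µg of total RNA per the labels' protocols, which name 10 mice without saying whether each pool held that number) was hybridized to 1 array per group. The authors deposited a linear signal intensity per probe set, computed by MAS5, whose version is not given in the sources used here, per the submitters' processing notes. Every array had the same mean, 500.2, over its central 2 to 98 percent, so the deposited scaling was kept. Of 12488 probe sets, 66 are controls. Of the other 12422, 10833 name 1 gene, 396 several and 1193 none.

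Signals lower than the 40th percentile over all arrays (145.9, here the floor, which held 39.4 to 40.8% of each array) were raised to it and log2 was taken. Tests ran on the 8421 probe sets whose mean log2 exceeded the floor, and each of the 6326 genes was read from its brightest probe set that names 1 gene. Of the members' 39 probe sets, 29 passed. limma 3.58.1 (lmFit, eBayes with trend, two-sided) in R 4.3.3 fitted vehicle, early and late levels with 4 residual degrees of freedom and adjusted by Benjamini-Hochberg over the 8421 probe sets at 0.05. Other steps used Python 3.11.15. The number of arrays limits the precision. The p-values rest only on the spread between these pools at different times within a phase, which includes change with time.

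Members at least 1.5-fold from vehicle at 2 or more times are given on all arrays. Other ribosome genes are named if 2-fold from vehicle at 2 or more times, and Myc is named whatever its values. The members and lists were chosen with earlier results of these data known. Genes outside these rules were named after their values were seen. Alternatives were other floors, quantile normalization, no filter, the mean of a gene's probe sets, an added 50 in place of the floor, the mean of vehicle and 1 h as the baseline, 1.5-fold in place of 2-fold, no variance trend and each array left out. Added after seeing the data were the median of all 7 arrays as the baseline, leaving out Nop58, Polr1b and Ftsj3 or Ftsj3 alone, and the settings for the count of genes highest at 6 h.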

Additional observations from a re-analysis of the deposited data

How the results depend on the processing

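Of 715 values recomputed under an alternative, 670 were counted as kept within the limits set. Small values could change sign and still count as kept. The nucleolar median at 24 h did so, at 0.16 against vehicle and -0.06 against the median of all 7 arrays. Large drops could count as kept too. Nolc1 in early DHT minus vehicle fell from 0.72 to 0.02 with the floor at the 60th percentile. No nucleolar gene passed in limma under any setting run. With 1 array per time, the spread that these limits use is the one between times within a phase, 0.24 for the nucleolar median and 0.11 for the other ribosome genes.

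The count of nucleolar genes highest at 6 h was 16 to 18 under the 7 settings tried. It was 16 with the floor at the 60th percentile, and also 16 without Nop58, Polr1b and Ftsj3, a setting that counts fewer genes. At 1.5-fold in place of 2-fold the counts at 3, 6, 12, 18 and 24 h were 9, 13, 7, 2 and 2, and with 50 added to the signal and no floor the count at 12 h was 0. With the floor at the 60th percentile the nucleolar median was 0.02, 0.29 and 0.18 at 3, 6 and 12 h, and that of the other ribosome genes was 0.04, 0.00 and 0.00 at 3, 6 and 12 h. A higher floor shrinks the ratios of dim genes by construction. Against the median of all 7 arrays, a baseline chosen after seeing the data, the nucleolar median was 0.06, 0.33, 0.16, 0.00 and -0.06 at 3, 6, 12, 18 and 24 h, so its sign turned at 24 h. Against the mean of vehicle and 1 h it was 0.35, 0.55, 0.35, 0.24 and 0.18 at those times, with 4 genes 2-fold higher at 3 h and 4 at 6 h. Late minus early, leaving out 1 array at a time gave medians of -0.28 to 0.10. The early median ranged over 0.15 to 0.50 and the late one over 0.22 to 0.38.

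Over all probe sets, limma called 23 early and 26 late, all lower after DHT, and 0 late against early, of which 16 early and 16 late lay at the floor on every DHT array (533, 987 and 863 had an unadjusted p under 0.05). The early and late counts were 93 and 101 with the floor at the 60th percentile, 14 and 15 with quantile normalization, 121 and 137 with no filter, 11 and 12 with the mean of a gene's probe sets, 0 and 2 with 50 added, and 0 and 0 without the variance trend. Late against early they were 1 with the floor at the 60th percentile and 10 with 50 added. Leaving out 1 array gave 8 to 55 early, 0 to 73 late and 0 to 1 late against early. Of the other ribosome genes, 1 passed early and 1 late with no filter, and 0 to 1 late with 1 array left out. The causes of these shifts were not tested. No paired analysis was possible because each group has 1 array.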
